A study of Mus musculus with 4 samples.

Results

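Endothelial cells line the blood and lymphatic vessels, and endocardial cells line the heart chambers and valves. The group described here is 32 mouse genes that mark these cells: pan-endothelial junction and surface proteins, growth factor receptors, transcription factors, and genes of arterial, venous, lymphatic and endocardial identity. They were chosen by gene symbol from the 43346 gene identifiers counted in each library. All 32 were found and all 32 passed the filter on low counts.

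The hearts were collected on postnatal day 0, the day of birth, from mice labelled wild type on an ICR strain background or MRTFA/B double knockout on a mixed background, with 2 libraries of total RNA per group. MRTFA and MRTFB are coactivators of serum response factor (SRF), and the comparison asks how the newborn heart's transcripts differ without them. The labels do not give the alleles or the cells in which each gene was deleted, so the values do not tell which of the genes the endothelial cells themselves lacked. Genotype and strain background cannot be told apart. Nothing in the labels says that libraries of 1 genotype are separate animals, so p-values measure only how far these libraries spread, and that spread may be technical.

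Vascular endothelial growth factors (VEGFs) act on endothelial receptors of the Kdr and Flt family and drive vessel growth. Angiopoietins act on the receptor Tek, which works with its relative Tie1, and steady the vessel wall. Notch signalling through Dll4 sets arterial identity, Prox1 directs lymphatic identity, and heart capillaries take up fatty acids for the beating muscle. In whole hearts, fewer cells of a type and less RNA per cell cannot be told apart.

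Libraries held between 16175259 and 29460641 counts, and the test covered 16009 genes. Levels are CPM, a gene's counts per 1000000 counts of its library, with library totals adjusted by TMM factors. Mrtfa was at 9.06 and 11.1 CPM in wild type, against 3.35 and 2.26 CPM in double knockout. Mrtfb was at 46.9, 56.8, 46.0 and 49.6 CPM, with overlap. That does not test its label, since a gene's counts would include reads from any exon left in place, and the labels do not give the alleles or cells. The members held 0.386% to 0.410% of all counts in each library. The 10 genes set as defining endothelial markers (Pecam1, Cdh5, Kdr, Tie1, Tek, Cldn5, Esam, Egfl7, Erg and Emcn) were read in every library, with at least 257 counts each, and none was at 0.

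The summed level of those 10 markers was 1430.3 and 1492 CPM in wild type, against 1407 and 1457 CPM in double knockout. The groups overlapped, so the bulk endothelial signal did not separate the genotypes. The summed level of all 32 members was 4011 and 4152 CPM in wild type, against 3902 and 3827 CPM in double knockout. This sum lay lower in both double knockout libraries with the TMM factors applied. As a share of all counts the groups overlapped, at 0.386% and 0.410% in wild type, against 0.405% and 0.387% in double knockout. The largest parts of the sum were Cav1 and Fabp4, which adipocytes and other cells also express.

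The genes were ordered by level per kilobase of annotated exon, while sums and ratios of CPM were not adjusted for length. Per kilobase Cav1, the main protein of caveolae, was the most abundant member at 213.6 to 244 CPM per kb over the 4 libraries. Fabp4, a fatty acid carrier of capillary endothelium, followed at 98.3 to 131 CPM per kb. Cdh5, the vascular endothelial cadherin, was next at 60.5 to 78.8 CPM per kb, and Pecam1, an adhesion molecule of endothelial junctions, at 47.7 to 55.4 CPM per kb. Those first 3 steps did not overlap between libraries. Of the 31 neighbouring pairs in the order, 26 had overlapping ranges, so the order in the middle of the list is loose. The lowest level per length was that of the lymphatic VEGF receptor Flt4, at 2.08 to 2.98 CPM per kb. Flt1 had the steadiest level, at 6.38 to 6.56 CPM per kb.

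**Figure D1:**
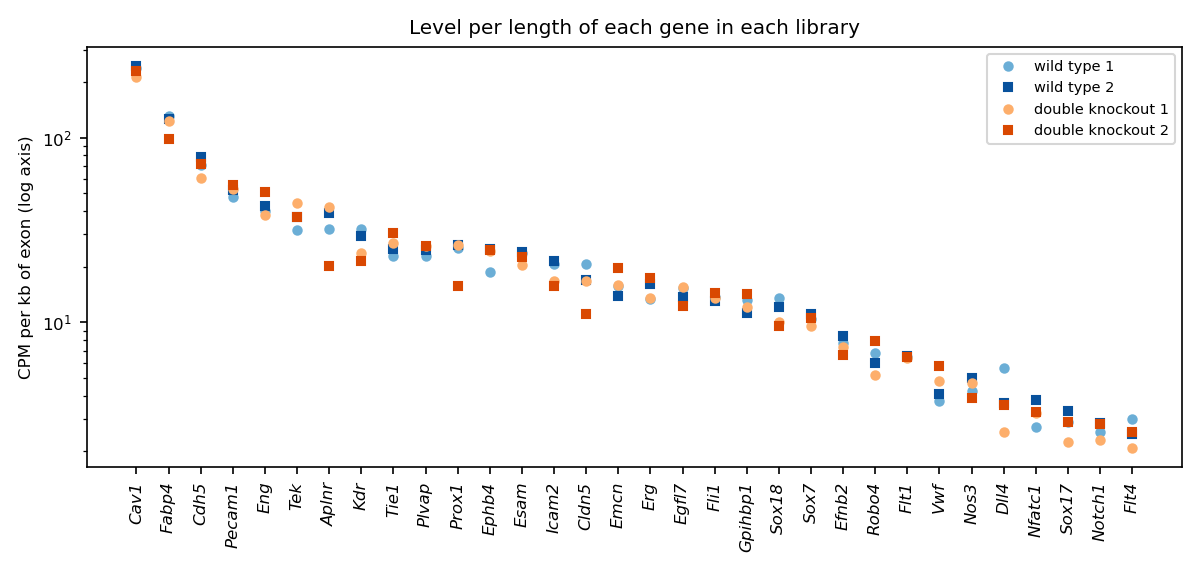
Level of each of the 32 genes per kilobase of exon (CPM per kb, log axis), 1 point per library, ordered by the mean. Cav1, Fabp4 and Cdh5 stand above the rest, and most neighbours overlap.

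Between the genotypes, edgeR's quasi-likelihood test with Benjamini-Hochberg adjustment called 0 of the 32 members at an adjusted p under 0.05, where 0.075% of all genes tested were called. The smallest adjusted p was 0.176, for Kdr. At an unadjusted p under 0.05 there were 4 members, 3 lower (Kdr, Icam2 and Sox18) and 1 higher (Vwf). That is 12.5% of the members against 17.3% of all genes tested. DESeq2 also called 0 of the 32, while it called 3.81% of its genes. The genotypes did not overlap in 15 members: double knockout was the higher in 6 (18.8%, against 25.8% of all genes) and the lower in 9 (28.1%, against 25.2% of all genes). The median log2 fold change was -0.09 over the members, with 12 positive and 20 negative, and 0.01 over all genes tested. With no filter on low counts edgeR called 3 members (Dll4, Kdr and Vwf), where it called 6.07% of genes. Without double knockout library 1 it called 7 (Aplnr, Cldn5, Emcn, Icam2, Kdr, Prox1 and Vwf), where it called 17.1% of genes. These shares are near the background, so the endothelial genes as a group did not stand out in this comparison.

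The precision of these differences varied between members. Flt1, the decoy receptor for VEGF, was at 87.2 and 88.6 CPM in wild type, against 86.2 and 87.2 CPM in double knockout. Its log2 fold change was -0.02, with a 95% interval of -0.26 to 0.22 from the edgeR fit. Intervals of other members were wider, and that of Aplnr ran from -1.14 to 0.75. The intervals are for single genes and are not adjusted for the number of genes.

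**Figure D2:**
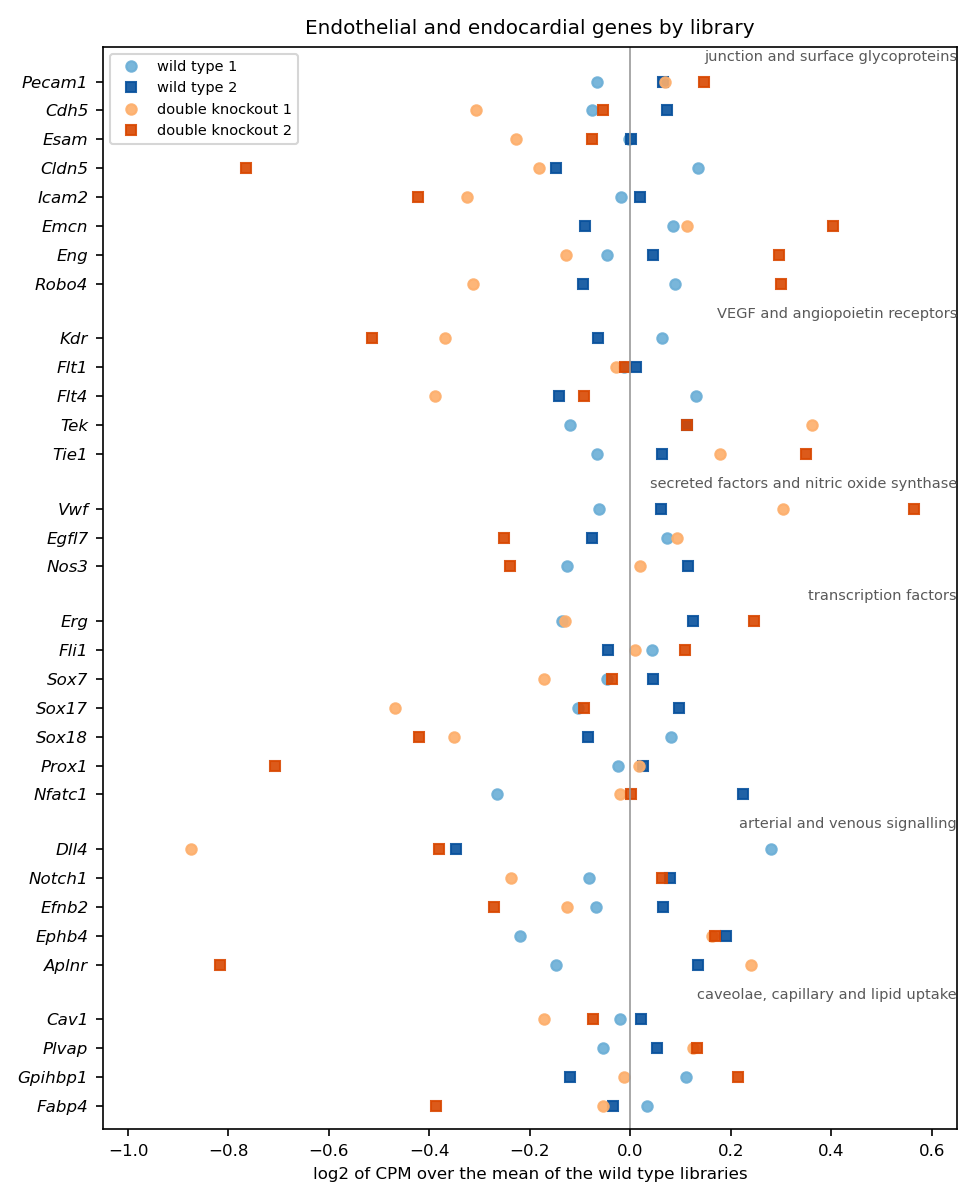
CPM of each gene in each library over the mean of the wild type libraries (log2), grouped by role. Circles are replicate 1 and squares replicate 2, blue wild type and orange double knockout, and the points of Kdr, Icam2, Sox18 and Vwf separate by genotype while those of Aplnr and Prox1 separate 1 double knockout library from the other 3.

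Among the VEGF receptors, Kdr and Flt1 differed in pattern. Kdr, the main signalling receptor for VEGF-A, was at 289.6 and 265 CPM in wild type, against 215 and 194 CPM in double knockout. The double knockout pair was low and the groups did not overlap. The group means were 277 ± 17.2 and 205 ± 14.4 CPM (SD, n = 2 each), with a ratio of 0.737. The log2 fold change was -0.44 (SE 0.12, interval -0.72 to -0.16), with edgeR adjusted p = 0.176. Flt4, which binds VEGF-C and marks lymphatic endothelium, was at 24.6, 20.3, 17.1 and 21.0 CPM in wild type libraries 1 and 2 and double knockout libraries 1 and 2, with overlap.

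The angiopoietin receptors lay on the other side. Tek was at 149 and 175 CPM in wild type, against 208 and 176 CPM in double knockout, and Tie1 at 112 and 122 CPM against 132 and 149 CPM. Both genes were higher in each double knockout library than in each wild type library, though for Tek the second libraries of the groups differed by less than the wild type pair did. Their log2 fold changes were 0.24 (interval -0.10 to 0.59) and 0.27 (interval -0.02 to 0.55), and edgeR adjusted p was 0.426 and 0.315.

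A ratio of 2 genes within a library removes a shared difference in endothelial content. The ratio of Kdr to Tie1 was 2.59 and 2.17 in wild type and 1.62 and 1.305 in double knockout, and that of Kdr to Tek was 1.94 and 1.51 against 1.03 and 1.11. Neither ratio overlapped between the genotypes, which was fixed in advance, since Kdr lay lower and Tie1 and Tek higher without overlap. These pairs were chosen after their values were seen and carry no test.

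To show the 2 receptors with opposite differences, the 250 bases upstream of their RefSeq start sites are printed 5′ to 3′ on the gene's strand (build GRCm38.p6, the assembly of mm10). Capitals mark GGAA or its complement TTCC, the core recognised by ETS factors such as the members Erg and Fli1.
Kdr, chr5:75978456-75978705, minus strand: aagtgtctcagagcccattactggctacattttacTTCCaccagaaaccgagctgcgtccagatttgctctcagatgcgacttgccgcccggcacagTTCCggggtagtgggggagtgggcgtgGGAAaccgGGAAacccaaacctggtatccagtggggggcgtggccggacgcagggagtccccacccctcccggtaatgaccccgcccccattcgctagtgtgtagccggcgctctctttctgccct
Tek, chr4:94739039-94739288, plus strand: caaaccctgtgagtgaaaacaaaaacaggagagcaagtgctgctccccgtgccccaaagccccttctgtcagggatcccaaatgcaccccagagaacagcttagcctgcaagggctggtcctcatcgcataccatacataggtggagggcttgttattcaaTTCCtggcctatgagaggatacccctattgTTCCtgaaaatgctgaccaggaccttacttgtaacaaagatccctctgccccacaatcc
The Kdr window held 4 cores and the Tek window 2. At least as many were found in 33.4% and 76.8% of all 32851 RefSeq windows, and 93.4% of them held at least 1. The window of Tie1, which differed in the same direction as Tek, held 7, a number reached in 3.82% of all windows. A relation between cores and the differences was not tested. The CArG box, the element that SRF binds, had no match on either strand in the 23 windows of the 17 members that the RefSeq table covers, and 1.47% of all windows held one. A match or its lack describes only these letters in these windows.

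Of the 3 secreted and enzymatic genes, 1 was higher without overlap (33.3%, against 25.8% of all genes). Vwf, the von Willebrand factor that endothelial and endocardial cells store for clotting, was at 59.9 and 65.3 CPM in wild type, against 77.3 and 92.6 CPM in double knockout. The double knockout pair was high, with a ratio of means of 1.36 and a log2 fold change of 0.44 (SE 0.13, interval 0.12 to 0.76; edgeR adjusted p = 0.193). The ratio of Vwf to Cdh5 within a library was 0.201 and 0.197 in wild type and 0.304 and 0.306 in double knockout, a pair also chosen after its values were seen. Egfl7, a secreted factor that hosts the endothelial miR-126, was at 54.7, 49.3, 55.5 and 43.7 CPM, and Nos3, the endothelial nitric oxide synthase, at 17.4, 20.6, 19.3 and 16.1 CPM. Both overlapped between the genotypes. Nos3 shares 25.2% of its exon bases with the opposite-strand gene Gm15587, and its level is uncertain because the strand setting of the counting was not stated.

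Junction and surface genes went both ways. Icam2, an adhesion molecule of endothelial cells and leukocytes, was at 39.5 and 40.6 CPM in wild type, against 31.99 and 29.9 CPM in double knockout. The log2 fold change was -0.37 (SE 0.12, interval -0.66 to -0.09), with an adjusted p of 0.209 by edgeR. The spread within each pair was small and the groups did not overlap. Cldn5, the tight junction claudin of endothelium, was at 29.3, 24.1, 23.6 and 15.7 CPM. Its double knockout library 1 lay next to wild type library 2, so most of the difference came from double knockout library 2 (log2 fold change -0.44, interval -0.99 to 0.11, and -0.18 without that library). The Cldn5 gene lies 5.36 Mb from Mrtfb on chromosome 16, so it is also linked to the targeted locus.

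Esam, an immunoglobulin-like junction protein, was at 68.3, 68.5, 58.4 and 64.8 CPM, lower in both double knockout libraries. Pecam1 was at 297 and 326 CPM in wild type, against 327 and 345 CPM in double knockout, and Cdh5 at 299 and 331 against 254 and 303 CPM. Pecam1 was slightly higher and Cdh5, which overlapped, slightly lower, with intervals of -0.17 to 0.38 and -0.50 to 0.15 on the log2 scale. Emcn, a sialoglycoprotein of veins, capillaries and endocardium, was at 84.8, 75.1, 86.5 and 105.8 CPM, highest in double knockout library 2. Eng, a co-receptor for TGF-beta family ligands (154 to 206 CPM), and Robo4, a guidance receptor of endothelium (27.5 to 42.0 CPM), each had their lowest and highest library within the double knockout pair.

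**Figure D3:**
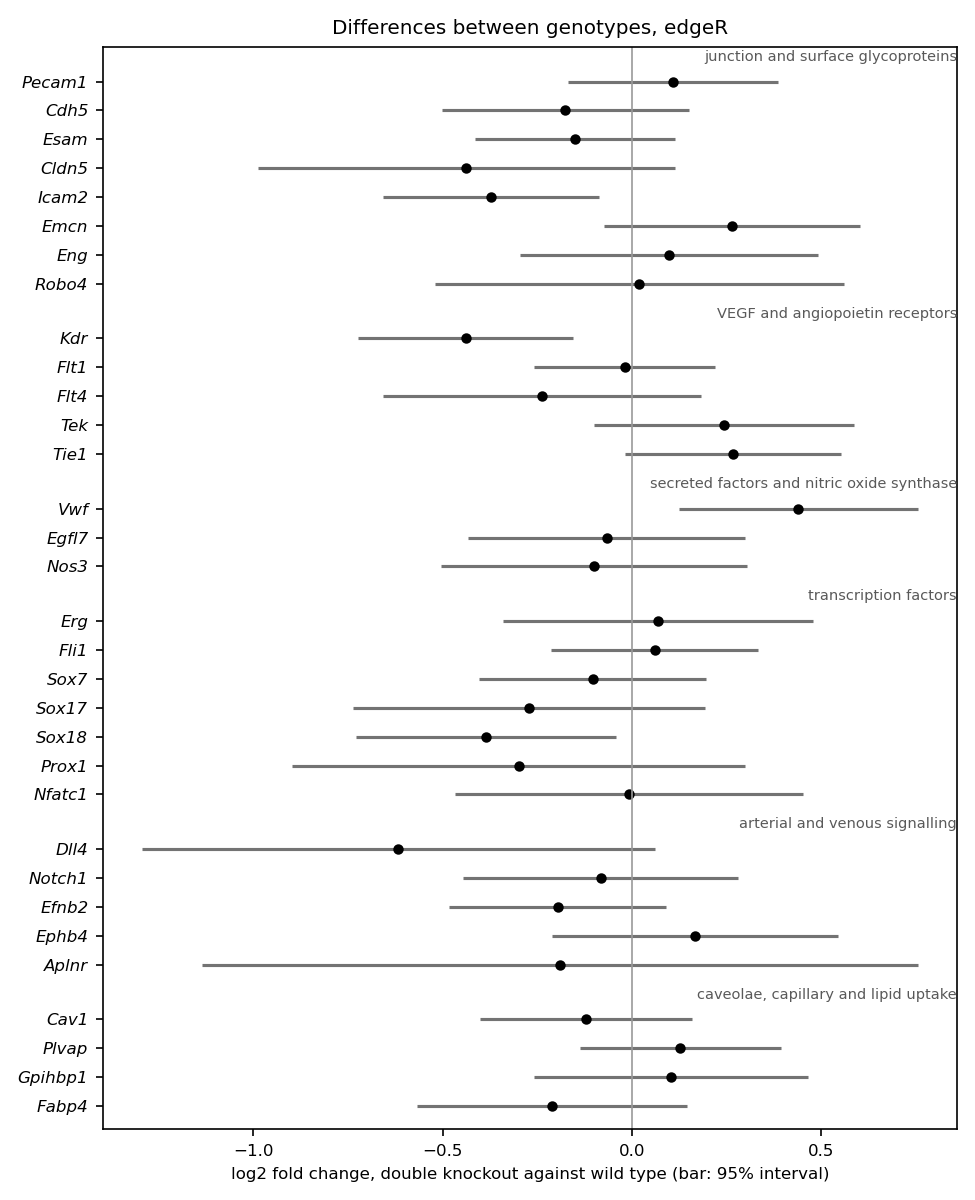
Log2 fold change of each gene, double knockout against wild type, with its 95% interval from the edgeR fit (not adjusted for the number of genes). Only the intervals of Icam2, Kdr, Sox18 and Vwf leave out 0.

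Of the 7 transcription factors, 1 was lower without overlap (14.3%, against 25.2% of all genes) and 0 were higher without overlap (against 25.8% of all genes). Sox18, an SRY-box factor of vascular and lymphatic development, was at 21.9 and 19.5 CPM in wild type, against 16.2 and 15.5 CPM in double knockout. The pairs did not meet, and the log2 fold change was -0.38 (SE 0.14, interval -0.73 to -0.04), with an adjusted p of 0.252 by edgeR. Its relatives Sox7 (34.5, 36.7, 31.6 and 34.7 CPM) and Sox17, an arterial factor (13.7, 15.8, 10.7 and 13.8 CPM), overlapped between the groups. That the 3 differ from each other was not tested. Sox17 shares 16.8% of its exon bases with the opposite-strand gene Gm37587.

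The ETS factors that maintain endothelial identity overlapped between the genotypes. Erg was at 46.4, 55.5, 46.6 and 60.4 CPM and Fli1 at 48.0, 45.2, 46.9 and 50.2 CPM, with log2 fold changes of 0.07 (interval -0.34 to 0.48) and 0.06 (interval -0.21 to 0.33). Nfatc1, the factor of endocardial cushions and valves, was at 20.2, 28.4, 23.9 and 24.3 CPM, so the wild type pair spanned both double knockout libraries. Prox1 was at 212, 219.6, 218 and 132 CPM. It stood apart in double knockout library 2 only, and the log2 fold change of -0.30 was 0.015 without that library. Prox1 is also expressed by heart muscle. The summed level of 10 cardiomyocyte markers was 51758, 51616, 49103 and 44120 CPM, lowest in the same library. Its largest part was Myh6, at 16361, 17163, 14825 and 12968 CPM. The markers did not move together, since 5 were lower in both double knockout libraries and 2 overlapped. The other 3 (Pln, Nppa and Myl7) were higher in both, so the sum does not stand for every muscle marker. The part of muscle cells in the Prox1 level was not tested.

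Among arterial and venous genes the libraries of a pair often lay apart. Dll4, the Notch ligand of arteries and sprouting tips, was at 21.7 and 14.02 CPM in wild type, against 9.73 and 13.7 CPM in double knockout. Wild type library 2 and double knockout library 2 were close, and the log2 fold change was -0.62 with an interval of -1.29 to 0.06. Its receptor Notch1 was at 36.3, 40.6, 32.6 and 40.1 CPM, with overlap.

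Efnb2, the arterial ephrin, was at 52.6 and 57.6 CPM in wild type, against 50.5 and 45.6 CPM in double knockout, while Ephb4, its venous receptor, was at 86.8 and 115 against 113 and 114 CPM. The ratio of Efnb2 to Ephb4 was 0.606 and 0.499 in wild type and 0.447 and 0.402 in double knockout. This ratio did not overlap, though the wild type libraries differed from each other by more than the nearest libraries of the 2 groups did. Aplnr, the apelin receptor of veins and growing capillaries, was at 119, 145, 156 and 74.9 CPM, so its double knockout libraries were the highest and the lowest of the 4.

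**Figure D4:**
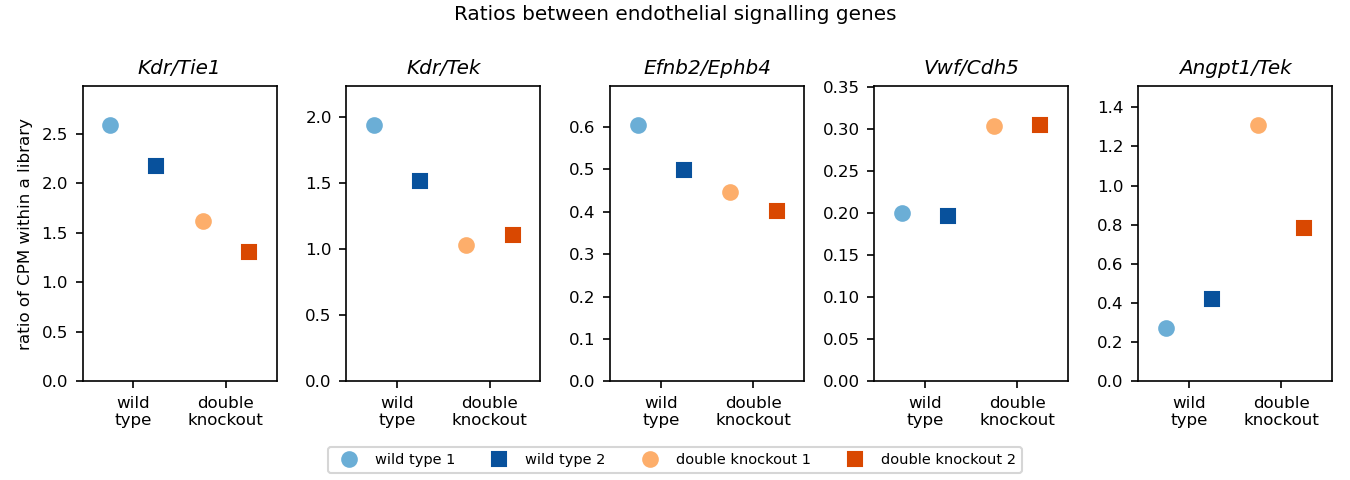
Ratio of CPM of 2 genes within each library (1 point per library, axes from 0) for Kdr to Tie1, Kdr to Tek, Efnb2 to Ephb4, Vwf to Cdh5 and Angpt1 to Tek. The pairs were chosen after their values were seen, so that none of the 5 ratios overlaps between the genotypes is no test. Of the ratios not drawn, Cldn5 to Cdh5 overlapped (0.098 and 0.073 in wild type, 0.093 and 0.052 in double knockout). Those of Kdr to Flt1, Dll4 to Notch1 and Emcn to Cdh5 did not. Of all single genes, 25.8% lay higher and 25.2% lower in double knockout without overlap.

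Capillary and lipid uptake genes showed small differences. Cav1 was at 817 and 840.4 CPM in wild type, against 736 and 787 CPM in double knockout. The ratio of means was 0.919, and the interval on the log2 scale was -0.40 to 0.16. Plvap, which forms the diaphragms of fenestrae and caveolae, was at 45.1, 48.7, 51.1 and 51.4 CPM. Gpihbp1, which carries lipoprotein lipase to the capillary surface, was at 33.8, 28.8, 31.0 and 36.3 CPM, with overlap, and its gene lies 5.41 Mb from Mrtfa on chromosome 15. Fabp4 was at 590.2 and 564 CPM in wild type, against 555 and 441 CPM in double knockout, where library 2 alone was far below the others.

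The libraries of a pair differed by a median of 1.11-fold over the members in wild type and 1.19-fold in double knockout. More than 1.3-fold apart were 3 members in wild type and 6 in double knockout. Read relative to the summed 10 markers in each library, 30 of the 32 members kept the sign of their fold change, and the other 2 were Flt1 and Nfatc1. The marker sum differed little between the genotypes (1430 and 1492 against 1407 and 1457 CPM). On this scale only fold changes near 0, such as -0.02 and -0.01 of those 2, could therefore turn, and the count of kept signs tests little. On that scale 7 members lay above without overlap (21.9%, against 28.4% of all genes) and 9 below (28.1%, against 20.9% of all genes). Of these, 6 in each direction were the same genes as on the CPM scale. Kdr, Icam2, Sox18 and Vwf were among them, and Cldn5, Dll4 and Fabp4 were not. The markers are themselves members, so this scale is not independent of them.

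Markers of other cell types were read in the same libraries. The summed level of 10 pericyte and smooth muscle markers was 4930.5 and 3405 CPM in wild type, against 2241 and 2127 CPM in double knockout, with Acta2 the largest part. Without Acta2 the other 9 summed to 1969 and 1937 CPM in wild type, against 1706 and 1688 CPM in double knockout. The largest of these 9 were Des, at 813, 723, 639 and 685 CPM, and Abcc9, at 467, 503, 500 and 465 CPM. How much of either came from heart muscle was not tested, so the sum is not a measure of mural cells alone. Of the 10 markers, 7 were lower in both double knockout libraries (70.0%, against 25.2% of all genes) and 0 were higher in both. Among those 7 were Rgs5, Cspg4 and Des, at log2 fold changes of -0.33, -0.26 and -0.21. The others were Acta2, Tagln, Cnn1 and Myh11, and Myh11 lies 0.78 Mb from Mrtfb on chromosome 16. The pericyte genes Pdgfrb, Abcc9 and Kcnj8 overlapped between the groups, at log2 fold changes of -0.02, -0.01 and -0.04. Macrophage markers summed to 93.5 and 93.1 CPM in wild type, against 119 and 111 CPM in double knockout. Of the 10, 7 were positive, as were 8206 of the 16009 genes tested. Higher in both double knockout libraries were 4 (40.0%, against 25.8% of all genes) and lower in both 0 (against 25.2%). Csf1r, Lyz2, Adgre1, Ptprc and Fcgr1 were each lowest in double knockout library 2, so the markers did not rise together. Fibroblast markers (3568 to 4577 CPM) and erythroid markers (463 to 806 CPM) overlapped between the groups, and epicardial markers were at 175, 166, 224 and 179 CPM. None of the defining markers of these lists was at 0, and their part in the endothelial values was not tested.

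The ligands and partners of these receptors were read from lists set out with the design. Of 10 VEGF and angiopoietin ligands and co-receptors, edgeR called 0 and 2 had an unadjusted p under 0.05, 1 in each direction, or 20.0% against 17.3% of all genes tested. Angpt1, the ligand that activates Tek, was at 41.0 and 73.4 CPM in wild type, against 273 and 137 CPM in double knockout. Here the double knockout pair was high, but its libraries differed by more than the nearest libraries of the 2 groups did. The log2 fold change of 1.85 (SE 0.44) had edgeR adjusted p = 0.178, and the gene shares 14.2% of its exon bases with the opposite-strand gene Gm17473. The ratio of Angpt1 to Tek was 0.274 and 0.418 in wild type and 1.31 and 0.782 in double knockout. Which cells the Angpt1 reads came from was not tested, so this ratio need not remove a difference in endothelial content.

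On the VEGF side, Nrp2, a co-receptor of veins and lymphatics, was at 105 and 94.0 CPM in wild type, against 77.9 and 66.7 CPM in double knockout (log2 fold change -0.46, edgeR adjusted p = 0.182). Vegfa, the ligand of Kdr, was at 292 and 248 CPM against 217 and 229.8 CPM, and Vegfd at 2.18 and 2.17 against 2.57 and 3.73 CPM. Nrp2 and Vegfa were thus lower, like Kdr, in both double knockout libraries, without passing the threshold.

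Among 20 further pan-endothelial genes, edgeR called 0, 9 fold changes were positive and 11 negative, and the median was -0.03. Ets1, an ETS factor of endothelium and lymphocytes, was at 197 and 203 CPM in wild type, against 147 and 123 CPM in double knockout. The log2 fold change of -0.57 (SE 0.13) had adjusted p = 0.155 in edgeR and passed in DESeq2, with adjusted p = 0.0303. Arhgef15, a gene of vascular endothelium, was at 41.0, 43.0, 31.95 and 30.7 CPM, and Cd34, a sialomucin of endothelium and progenitors, at 224, 230.4, 168 and 190.3 CPM. Rasgrp3, an exchange factor for Ras and Rap, was at 95.8, 85.3, 78.7 and 68.5 CPM. All 4 were lower in both double knockout libraries, and the rule that named them took the smallest p-values of the list. Over the list of 20, 8 were lower in both (40.0%, against 25.2% of all genes). The 3 higher in both were S1pr1, Ramp2 and Clec14a (15.0%, against 25.8% of all genes).

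**Figure D5:**
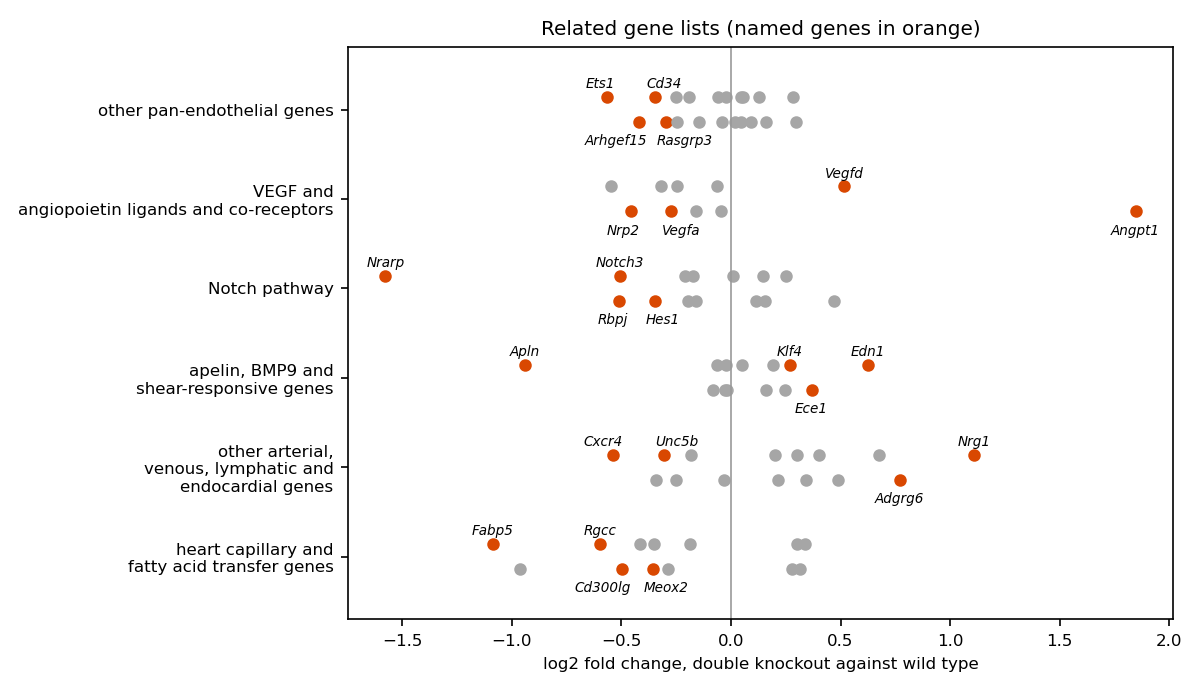
Log2 fold change, double knockout against wild type, of each gene in 6 related lists, 1 point per gene. Orange points are the 4 genes of each list with the smallest edgeR p, and Angpt1 at 1.85 and Nrarp at -1.58 are the outermost.

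In the Notch list edgeR called 0 of 14, and 4 had an unadjusted p under 0.05, all lower, or 28.6% against 17.3% of all genes tested. Nrarp, a target and inhibitor of Notch, was at 1.41 and 1.37 CPM in wild type, against 0.529 and 0.367 CPM in double knockout. At these low levels the log2 fold change was -1.58 (SE 0.36), with an adjusted p of 0.157 by edgeR. Nrarp shares 79.4% of its exon bases with the opposite-strand gene Gm38287, so its level is uncertain without the strand setting. Notch3, the receptor of mural cells, was at 32.4, 36.6, 22.0 and 26.6 CPM. Rbpj, the DNA-binding partner of Notch, was at 25.1, 27.8, 15.7 and 21.7 CPM, and Hes1, a common Notch target, at 23.9, 22.0, 18.2 and 17.9 CPM. The arterial target Hey2, which is also a ventricular muscle gene, was on the other side at 150.5, 165, 176 and 175 CPM, and was picked after its value was seen.

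For the apelin, BMP9 and flow-responsive list edgeR called 0 of 13, with a median log2 fold change of 0.05. Apln, the ligand of Aplnr, was at 40.7 and 21.2 CPM in wild type, against 16.5 and 15.7 CPM in double knockout. The double knockout pair was low, but most of the difference came from wild type library 1 (log2 fold change -0.94, SE 0.32; edgeR adjusted p = 0.240). Edn1, the vasoconstrictor endothelin, was at 15.0, 9.48, 14.2 and 23.8 CPM and overlapped, as did Ece1, its converting enzyme, at 135, 149.7, 148 and 220.4 CPM. Klf4, a factor induced by flow, was at 19.7, 24.7, 25.3 and 28.3 CPM, slightly higher in double knockout.

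The list of 15 further arterial, venous, lymphatic and endocardial genes held genes on both sides. Adgrg6, an adhesion receptor of endocardium, was at 33.9 and 40.5 CPM in wild type, against 53.0 and 74.1 CPM in double knockout. The log2 fold change of 0.77 (SE 0.19) had adjusted p = 0.166 in edgeR and passed in DESeq2, with adjusted p = 0.0327. Nrg1, the neuregulin that endocardium sends to heart muscle, was at 2.89 and 2.01 CPM against 4.16 and 6.55 CPM (log2 fold change 1.11, SE 0.33; edgeR adjusted p = 0.193). Npr3, a natriuretic peptide receptor of endocardium, was at 123 and 163 CPM against 180 and 277 CPM, and was picked after its value was seen. These 3 were higher in both double knockout libraries. Tmem100, a gene of endocardium and arteries, was lower in both, at 17.1 and 21.5 CPM in wild type, against 14.3 and 16.1 CPM in double knockout (log2 fold change -0.34). The endocardial members Nfatc1 and Emcn were at log2 fold changes of -0.01 and 0.26. These endocardial genes were set side by side after their values were seen, and no list of them was set out with the design. In the same list Unc5b, a guidance receptor of arteries (58.6, 53.6, 46.0 and 44.7 CPM), and Cxcr4, a chemokine receptor (7.51, 6.67, 4.94 and 4.83 CPM), were lower in both. In all edgeR called 0 of the 15, and 5 had an unadjusted p under 0.05, 3 higher and 2 lower, or 33.3% against 17.3% of all genes tested.

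Heart capillary and fatty acid transfer genes had a median log2 fold change of -0.35 in 13 genes, 9 of them negative, against 0.01 over all genes tested. In this list edgeR called 0 genes, and 4 had an unadjusted p under 0.05, all lower, or 30.8% against 17.3% of all genes tested. Fabp5, a fatty acid carrier that works beside Fabp4, was at 56.5 and 62.6 CPM in wild type, against 24.7 and 31.5 CPM in double knockout. The double knockout pair was low, and the log2 fold change of -1.09 (SE 0.15) had adjusted p = 0.120 in edgeR and 2.26e-05 in DESeq2, where it passed. Fabp5 is also expressed by macrophages and other cells, and their part in its level was not tested.

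Cd300lg, a surface mucin of capillary endothelium, was at 45.2 and 46.8 CPM in wild type, against 31.1 and 34.2 CPM in double knockout. Rgcc, a cell cycle regulator high in capillaries, was at 10.4, 9.81, 7.44 and 5.81 CPM, and Meox2, a factor that with Tcf15 drives fatty acid uptake in heart endothelium, at 28.3, 26.3, 21.4 and 21.2 CPM. All 3 were lower in both double knockout libraries, with edgeR adjusted p of 0.159, 0.222 and 0.241. Cd36, the fatty acid translocase, was at 1839, 1515, 1515 and 995.7 CPM, and Angptl4, a lipase inhibitor, at 130.3, 108, 115 and 5.87 CPM. These last 2, picked after their values were seen, were low in double knockout library 2, as were Fabp4, Aplnr and Prox1 among the members. Of the 13 genes of the list, 4 had positive fold changes. Among them Aqp1 was at 121, 120, 126 and 178 CPM and Lpl at 1473, 1448, 1468 and 2129 CPM, both highest in double knockout library 2.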

How the data were processed

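The authors deposited raw counts of reads per gene for 4 mouse heart libraries, made with HTSeq on mm10 per the submitters' processing notes, which also name DESeq 1.10.1. Aligner, annotation release and strand setting: not given in the sources used here. Of 43346 identifiers, 42462 had a symbol in GENCODE M21, which also gave positions and exon lengths. Libraries were grouped by their titles.

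Here all 4 libraries entered 1 fit of edgeR 4.0.16 (R 4.3.3) with filterByExpr, TMM, robust estimation and no covariate, adjusted over all 16009 genes. A count of 3 equals 0.106 to 0.184 CPM. Every listed gene was above that. Intervals are 95% from the fit's SE and degrees of freedom. The scripts were tested on simulated data.

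Alternatives were RLE and no composition factors, no filter, a stricter filter, DESeq2 1.42.0, no robust estimation, a replicate block, removal of erythroid and mitochondrial genes and leaving out each library. A crossed block was chosen after seeing the data.

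All 32 members are described. From each related list the 4 genes with the smallest edgeR p are named. Members and lists were chosen with earlier results of these data known. Promoter windows came from RefSeq.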

Additional observations from a re-analysis of the deposited data

How the results depend on the processing

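Of the 32 members, 20 kept their direction in all 13 alternatives. The number called was 0 except with no filter, 3 (Dll4, Kdr and Vwf, where 6.07% of genes were called), and without double knockout library 1, 7 (Aplnr, Cldn5, Emcn, Icam2, Kdr, Prox1 and Vwf, where 17.1% were called). With 1 library left out the count therefore ranged from 0 to 7, and the lone library is assumed to vary like the other group. Calls over all genes were 12 in edgeR, 526 in DESeq2, 1514 with no filter, 2 with the replicate block, 3 with the crossed block and 2 to 2795 with 1 library left out. The labels do not say whether same-numbered libraries share a block. Their deviations correlated at r = -0.105 across genes, which with 2 libraries per group cannot decide it. The blocked fits called 0 members. Of the calls, 16.7% were higher in the main setting, 9.09% with RLE, 48.2% with no filter and 52.7% in DESeq2. The median over the members was -0.0215 with no composition factors, where the median of all genes was 0.08, and ranged from -0.15 (without wild type library 1) to -0.0475 with 1 library left out.

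Directions turned in 12 members, none of them called there. With no composition factors Flt1 was at 0.0512, Egfl7 at 0.0071 and Nfatc1 at 0.0590. With the replicate block Robo4 was at -0.0064 and Nfatc1 at 0.0123, and with the crossed block -0.0044 and 0.0069. Robo4 ranged from -0.32 to 0.30, Egfl7 from -0.25 to 0.0915, Nos3 from -0.24 to 0.0195, Erg from -0.13 to 0.24, Nfatc1 from -0.24 to 0.24, Prox1 from -0.71 to 0.0154, Eng from -0.13 to 0.29, Notch1 from -0.24 to 0.0609, Ephb4 from -0.0292 to 0.37, Aplnr from -0.82 to 0.24 and Gpihbp1 from -0.0207 to 0.22 over the 13 alternatives, each turning when 1 library was left out. Mrtfb reached 0.0116. The cause was not tested.

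The lowest depth behind a member was 224 counts, for Dll4 in double knockout library 2, and with 2 libraries per group the spread between libraries rests on few degrees of freedom.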
